A study of Mus musculus with 12 samples.

Results

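The nuclear genes of 2 enzyme complexes of the mitochondrial respiratory chain were examined in mouse embryonic stem cells (mESCs) and in NIH3T3 cells, an established line of mouse fibroblasts. The genes were those whose symbol begins with Nduf, Cox4i, Cox5, Cox6, Cox7 or Cox8 and that have a transcript annotated as protein-coding in the RNA-seq tables. This gave 64 genes out of 21923 with such a transcript. The 6 other genes with these prefixes have no protein-coding transcript and were left out. By role, 7 genes encode core subunits of complex I, 29 its accessory subunits, 8 its Ndufaf assembly factors, 2 Ndufa4 and its paralogue, and 18 subunits of cytochrome c oxidase. They lie on 19 chromosomes.

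Both lines were cultured in the same GMEM-based medium with 10% FBS and LIF, and the labels name no treatment. In mESCs of the E14TG2a line, the factors mapped by ChIP-seq were Ctr9 and NELFA, each through a GFP tag, together with H3K27ac and the Ser5p and Ser2p forms of RNAPII. In NIH3T3 cells they were Ctr9, again through GFP, and H3K27ac. GFP was inserted by CRISPR/Cas9 at the C terminus of the Ctr9 gene, and the knock-in cells were sorted as a pool and not grown from 1 clone, while NELFA carried a GFP tag in a separate mESC line, in which RNAPII Ser5p was also mapped. Each of the 7 lists and each of the 2 RNA-seq tables came from 1 library, so no value below has a replicate and no test between the lines was possible. Intervals on count ratios cover counting error only. Those on shares treat genes as independent draws and do not give the error of a ChIP-seq library. The mESC RNA-seq library held 26400407 estimated counts and the NIH3T3 library 28849497, while the peak lists give no read totals, so that the depth reached by each ChIP-seq library, for which the methods state only a target, is not known here. The labels of both lines were checked against markers. All 5 mESC markers (Pou5f1, Sox2, Nanog, Zfp42 and Esrrb) were higher in mESCs by more than 2-fold, with 1402 TPM for Pou5f1 in mESCs and 0 in NIH3T3 cells, and all 5 fibroblast markers (Col1a1, Col1a2, Col5a1, Thy1 and Pdgfrb) were higher in NIH3T3 cells, with 901 TPM for Col1a1 there and 0.203 in mESCs.

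Complex I takes electrons from NADH and passes them to ubiquinone, and cytochrome c oxidase, or complex IV, hands electrons from cytochrome c to oxygen. Both enzymes combine subunits encoded in the nucleus with a few encoded by mitochondrial DNA, and several nuclear subunits of cytochrome c oxidase exist as paralogues used mainly in muscle, lung or testis. Ctr9 is a core subunit of the Paf1 complex, which travels with RNA polymerase II (RNAPII) during elongation. NELFA belongs to NELF, which holds RNAPII near the transcription start site (TSS). RNAPII Ser5p and Ser2p are forms of the polymerase associated with early and with productive elongation, and H3K27ac marks active promoters and enhancers.

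Most of the 64 genes were highly expressed, and at similar levels in both lines. TPM measures the share of a transcript in the mRNA of its library after correction for length, and each gene was given the value of its highest transcript. The median level was 83.6 TPM in mESCs (95% order-statistic interval over genes, 56.2 to 130.1) and 84.2 TPM in NIH3T3 cells (58.7 to 109.7), compared with 1.24 and 0.801 TPM over all 21905 protein-coding genes with coordinates. In mESCs 50 of the 64 genes were in the top 25% of expressed protein-coding genes, which began at 21.6 TPM, and in NIH3T3 cells 49 were, from 23.5 TPM. The values of the 64 genes summed to 8928 TPM in mESCs and 7550 TPM in NIH3T3 cells. Cytochrome c oxidase genes held the largest part of these sums, with 4571 and 3419 TPM, followed by the accessory subunits of complex I with 3043 and 2771 TPM.

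The role groups differed in level. The 7 core subunits of complex I encoded in the nucleus, which carry its flavin and iron-sulfur clusters, had a median of 68.5 TPM in mESCs and 58.7 TPM in NIH3T3 cells. Among them, Ndufv2 was the highest in both lines, with 240 TPM in mESCs and 207 TPM in NIH3T3 cells, and the lowest were Ndufs7 in mESCs, with 45.8 TPM, and Ndufs3 in NIH3T3 cells, with 41.8 TPM. The 29 accessory subunits had medians of 118 and 89.0 TPM and ranged from 30.3 TPM (Ndufb2) to 217 TPM (Ndufa7) in mESCs. The lower end depended on the transcripts counted, since over protein-coding transcripts alone the lowest in mESCs were Ndufa3 (2.58 TPM), Ndufc1 (3.93 TPM), Ndufab1 (5.98 TPM) and Ndufs4 (8.48 TPM). The 8 assembly factors, which help to build complex I and are not part of the finished enzyme, were lower, with medians of 12.2 and 10.6 TPM. The highest of them was Ndufaf2, with 45.6 TPM in mESCs and 57.6 TPM in NIH3T3 cells. The cytochrome c oxidase genes spanned the widest range, from 0 to 690 TPM in mESCs.

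The highest levels of all belonged to cytochrome c oxidase and Ndufa4, a small protein found with complex IV. In mESCs the 5 highest genes were Cox4i1 (690 TPM), Cox6c (636 TPM), Cox5a (520 TPM), Cox7c (509 TPM) and Ndufa4 (494 TPM). In NIH3T3 cells they were Cox6c (653 TPM), Ndufa4 (651 TPM), Cox8a (469 TPM), Cox4i1 (321 TPM) and Cox6a1 (302 TPM). Cox4i1, Cox6c and Ndufa4 were on both lists. The order of neighbouring genes in each list cannot be given an error, because each line had 1 library.

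Between the lines, 52 of the 60 genes with at least 1 TPM in a line differed by less than 2-fold. Fold changes were taken on log2(TPM + 1), a scale that understates the change of low genes. Higher in mESCs by 2-fold or more were 7 genes (11.7%, 95% exact Clopper-Pearson interval 4.82 to 22.6), compared with 23.8% of the 12379 protein-coding genes that passed the same filter. Higher in NIH3T3 cells was 1 gene (1.67%, 0.0422 to 8.94), compared with 20.0% of all genes. The median log2 ratio of mESCs over NIH3T3 cells was 0.21 for the 60 genes (−0.00 to 0.44) and 0.13 for all genes. Relative to that common shift, 33 genes lay above it and 27 below. By role, the median log2 ratio was 0.22 for the core subunits (−0.55 to 0.65), 0.16 for the accessory subunits (−0.20 to 0.39), 0.00 for the assembly factors (−0.33 to 3.47) and 0.68 for the 14 cytochrome c oxidase genes that passed the filter (−0.12 to 1.12). The intervals of the accessory subunits and the cytochrome c oxidase genes included 0.13. With 7 core subunits and 8 assembly factors, the intervals of these groups ran from the lowest to the highest gene. That they include 0.13 therefore says little. No core subunit encoded in the nucleus was 2-fold apart. The 4 genes under 1 TPM in both lines were Cox6a2, Cox7b2, Cox8b and Cox8c.

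**Figure D1:**
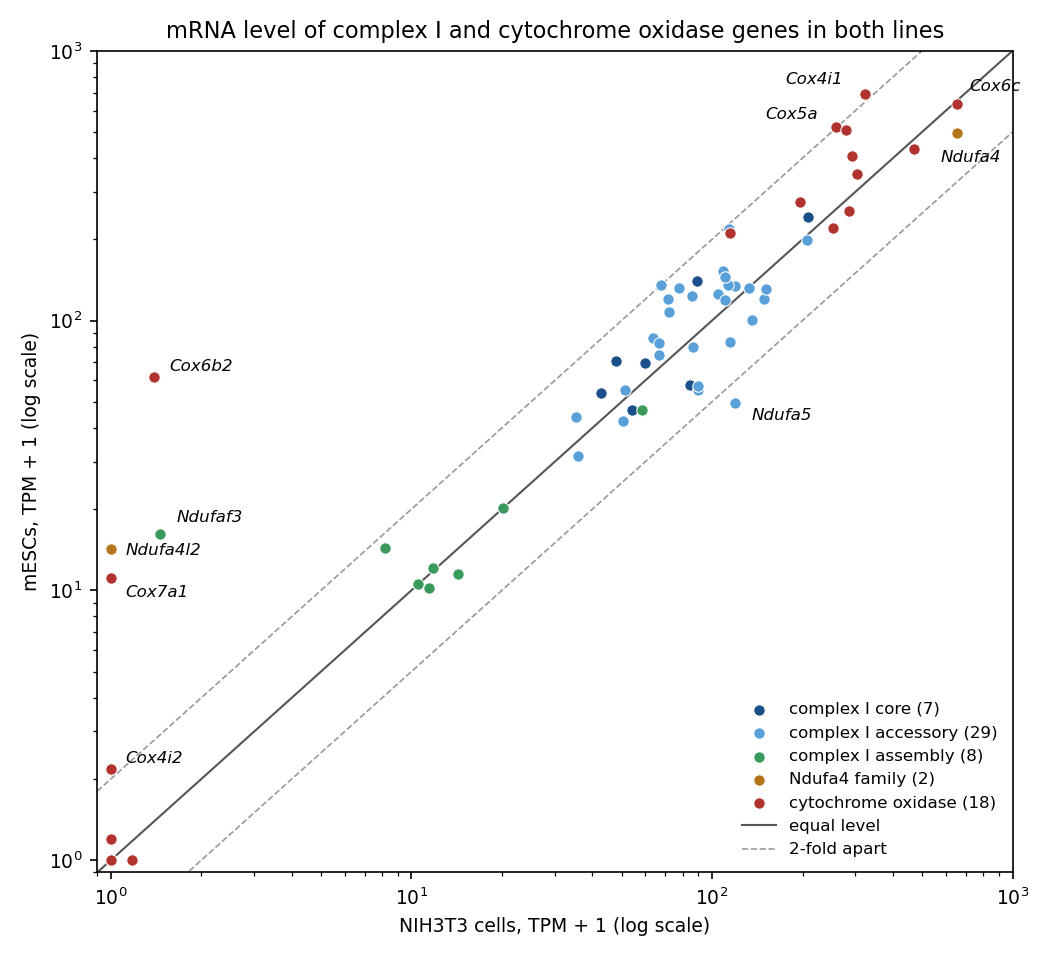
Level of each of the 64 genes in NIH3T3 cells (x axis) and mESCs (y axis), as TPM + 1 on log scales, 1 point per gene and 1 library per line, coloured by role. Most points lie between the dashed lines that mark 2-fold, and Cox6b2, Ndufaf3, Ndufa4l2 and Cox7a1 lie far above them.

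Of the 7 genes higher in mESCs, 4 were at or near 0 in NIH3T3 cells while well detected in mESCs. Cox6b2, the testis form of subunit 6b, had 60.8 TPM in mESCs and 0.396 TPM in NIH3T3 cells. Over all transcripts of the gene this was 1114 estimated counts and 3, a ratio of 406 after scaling for library totals (exact interval 138 to 1971). Ndufa4l2, the paralogue of Ndufa4 known as a target of the hypoxia response, had 13.2 TPM and 311 counts in mESCs and no count in NIH3T3 cells. Cox7a1, the heart and skeletal muscle form of subunit 7a, had 10.1 TPM and 55 counts in mESCs and no count in NIH3T3 cells. Set against 3 counts in the NIH3T3 library, Ndufa4l2 was at least 69.8-fold and Cox7a1 at least 14.1-fold higher in mESCs by TPM. Ndufaf3, an assembly factor that works with Ndufaf4, had 15.1 TPM in mESCs and 0.458 TPM in NIH3T3 cells, with 277 counts and 8, a ratio of 37.8 (18.9 to 88.5). Its partner Ndufaf4 had 10.5 and 13.3 TPM by a processed transcript, and 4.77 and 2.02 TPM over its protein-coding transcripts. The annotated ends of Ndufaf3 and Ndufa4l2 overlap the genes Impdh2 and Shmt2 on the opposite strand, and whether the RNA-seq library kept strand is not given in the sources used here.

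The other 3 genes higher in mESCs were Cox4i1 and Cox5a, at high level in both lines, and Cox4i2, near the lower limit. Cox4i1, the common form of subunit 4, had 690 TPM in mESCs and 321 TPM in NIH3T3 cells, and its counts gave a ratio of 2.10 (2.04 to 2.16). Cox5a had 520 and 258 TPM, with a count ratio of 2.02 (1.92 to 2.13). Cox4i2, the lung and hypoxia form of subunit 4, had 1.17 TPM and 14 counts in mESCs and no count in NIH3T3 cells, for which the exact interval of the count ratio starts at 3.62. These 3 genes lay close to the 2-fold limit on log2(TPM + 1), and they fell below it when the median of all genes was set to 0, which left 4 genes. The gene higher in NIH3T3 cells was Ndufa5, an accessory subunit, with 48.3 TPM in mESCs and 118 TPM in NIH3T3 cells. Its highest transcript is annotated as a processed transcript and not as protein-coding. With TPM summed over all its transcripts, or over the protein-coding transcripts alone, Ndufa5 was no longer 2-fold apart. A transcript not annotated as protein-coding gave the value of 12 genes in mESCs and of 13 in NIH3T3 cells. In mESCs these were 7 processed transcripts, 3 retained introns and 2 transcripts marked for nonsense-mediated decay, and in NIH3T3 cells 7, 4 and 2.

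Within the isoform families of cytochrome c oxidase, the common form was higher than the tissue-restricted form in both lines, and subunit 6b in mESCs came closest to an exception. For subunit 6a, Cox6a1 had 349 TPM in mESCs and 302 TPM in NIH3T3 cells, and the muscle form Cox6a2 had 0 and 0.172 TPM. For subunit 6b, Cox6b1 had 253 and 284 TPM, and Cox6b2 with 60.8 TPM in mESCs was the only tissue-restricted form of the families examined above 20 TPM in either line. Summed over all transcripts, Cox6b1 had 470 TPM and Cox6b2 161 TPM in mESCs. For subunit 7a, Cox7a2 had 210 and 114 TPM and Cox7a2l, a factor of respiratory supercomplexes, 219 and 251 TPM, next to 10.1 and 0 TPM for Cox7a1. For subunit 7b, Cox7b had 407 and 292 TPM, and the testis form Cox7b2 had 0.197 and 0 TPM. The values of Cox7a2 and Cox7b came from a processed transcript and a retained intron, and their protein-coding transcripts were lower, with 61.5 and 45.7 TPM for Cox7a2 and 64.9 and 43.3 TPM for Cox7b. For subunit 8, Cox8a had 431 and 469 TPM, and the muscle form Cox8b and the testis form Cox8c had no count in either library, which allows up to 3 counts. The skeletal muscle markers Myh3, Ckm, Acta1 and Myog were all under 1 TPM in both lines. The other subunits, for which the 64 genes hold a single form, were Cox5a with 520 and 258 TPM, Cox5b with 274 and 196 TPM (203 and 122 TPM over its protein-coding transcripts), Cox6c with 636 and 653 TPM and Cox7c with 509 and 278 TPM.

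**Figure D2:**
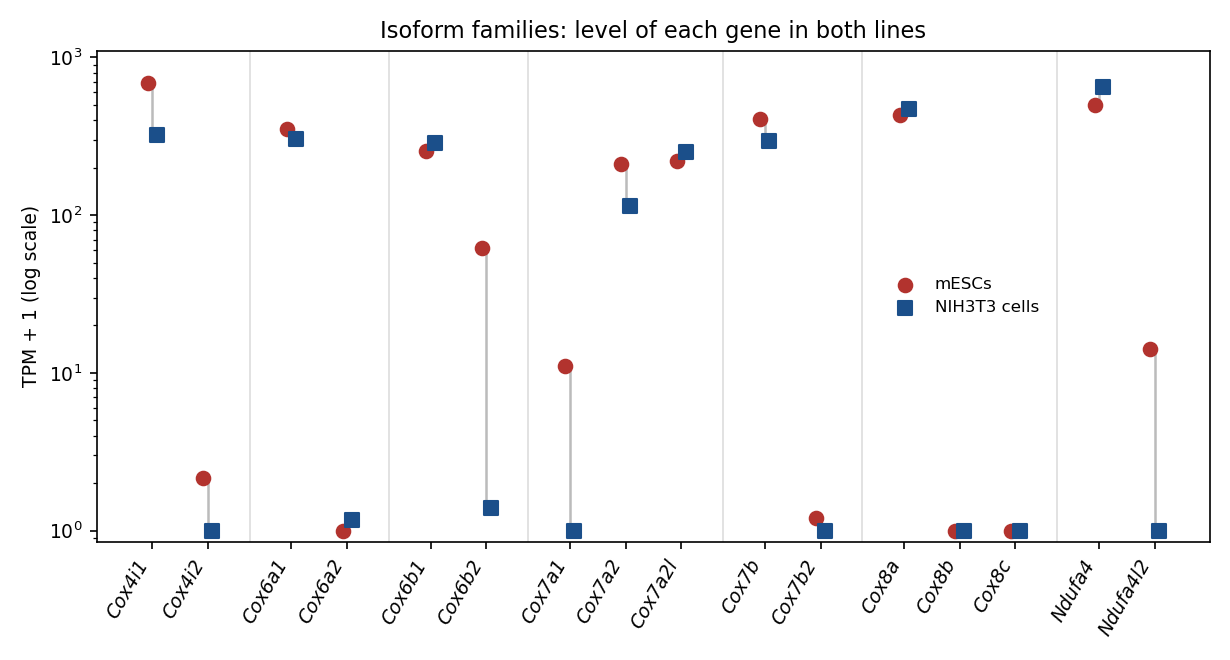
Level of each gene of 7 isoform families, as TPM + 1 on a log scale, in mESCs (circles) and NIH3T3 cells (squares), 1 library each. By their highest transcript the common forms sit above 100 TPM in both lines, though the protein-coding transcripts of Cox7a2 and Cox7b have 43.3 to 64.9 TPM, and Cox6b2, Cox7a1 and Ndufa4l2 are separated between the lines.

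The window of a gene ran from 1 kb before its start to 5 kb past its end, and a peak that shared at least 1 bp with it was counted. Of the 64 genes, 54 had a Ctr9 peak in mESCs (84.4%, 73.1 to 92.2), compared with 44.1% of all protein-coding genes, and 55 had an H3K27ac peak (85.9%), compared with 43.1%. Fewer genes had peaks of the other mESC lists. NELFA peaks were found at 16 genes (25%), compared with 10.4% of all genes, RNAPII Ser5p peaks at 14 (21.9%), compared with 12.8%, and RNAPII Ser2p peaks at 8 (12.5%), compared with 6.99%. In NIH3T3 cells, 23 genes had a Ctr9 peak (35.9%, 24.3 to 48.9), compared with 25.8% of all genes, and 56 had an H3K27ac peak (87.5%), compared with 54.7%. In 46 of the 64 windows there was also the body of another protein-coding gene, so that a peak in the window need not belong to the gene named. At the 18 genes without one, the mESC shares were lower for Ctr9 (66.7%), NELFA (11.1%), RNAPII Ser5p (11.1%) and RNAPII Ser2p (0%), compared with 27.4%, 6.26%, 8.01% and 2.92% of the 11696 protein-coding genes without another gene body in the window. The 18 include genes of low level. At the 13 of them in the top 25% by TPM, the shares were 84.6%, 15.4%, 15.4% and 0%. For the 1663 such genes of that class they were 88.9%, 26.5%, 34.3% and 15.5%. With only summits in the gene body or 1 kb upstream counted, a rule chosen after seeing the data, Ctr9 was at 42.2% of the 64 genes in mESCs and 25% in NIH3T3 cells, compared with 33.1% and 20.1% of all genes.

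Since most of these genes were highly expressed, the shares were also set beside those of all protein-coding genes in the top 25% by TPM. In mESCs the Ctr9 share was 92.0% of the 50 genes (80.8 to 97.8) and 91.9% of all 4040 genes in that class, and for H3K27ac the shares were 94.0% and 89.7%. NELFA was at 28.0% and 29.4%. RNAPII Ser5p was at 22.0% (11.5 to 36.0) and 36.3%, and RNAPII Ser2p at 8% (2.22 to 19.2) and 21.3%. In NIH3T3 cells a Ctr9 peak was found at 16 of 49 genes, or 32.7% (19.9 to 47.5), compared with 65.8% of the 3662 genes in that class (64.2 to 67.3), while H3K27ac was at 98.0% and 97.5%. The respiratory genes minus the class gave −33.1 percentage points for Ctr9 in NIH3T3 cells and 0.119 percentage points in mESCs. The NIH3T3 value pools roles that differ. Among the highly expressed cytochrome c oxidase genes, only Cox6b1, Cox7a2 and Cox7b lacked a NIH3T3 Ctr9 peak. Over all levels, that peak was at 11 of 18 cytochrome c oxidase genes. It was at 6 of 29 accessory subunits, 2 of 7 core subunits and 3 of 8 assembly factors of complex I. With the mESC list cut to as many peaks as the NIH3T3 list, the mESC difference was −1.52 percentage points. The mESC value depended on the downstream part of the window. With only summits in the body or 1 kb upstream counted, Ctr9 was at 46.0% of the 50 genes and 71.6% of the class in mESCs, a difference of −25.6 percentage points, and at 22.4% of the 49 genes and 53.9% of the class in NIH3T3 cells, a difference of −31.4. Fewer cells with an occupied gene and weaker occupancy in each cell cannot be told apart in these bulk samples.

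The 64 genes are short, with a median length of 7333 bps compared with 19953 bps for the highly expressed class of mESCs. Within length classes the NIH3T3 Ctr9 shares were 33.3% under 5 kb, 33.3% from 5 to 15 kb and 30.0% above, compared with 60.9%, 58.9% and 70.1% for all highly expressed genes of the same length. In mESCs the same classes gave 87.5%, 95.8% and 90.0%, compared with 89.9%, 93.2% and 91.7%. For summits in the body or 1 kb upstream, the mESC shares were 31.2%, 50% and 60%, compared with 55.3%, 72.4% and 74.7%. The Ctr9 lists held 44748 peaks in mESCs and 22016 in NIH3T3 cells, and the part of sequencing depth in this difference was not tested.

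**Figure D3:**
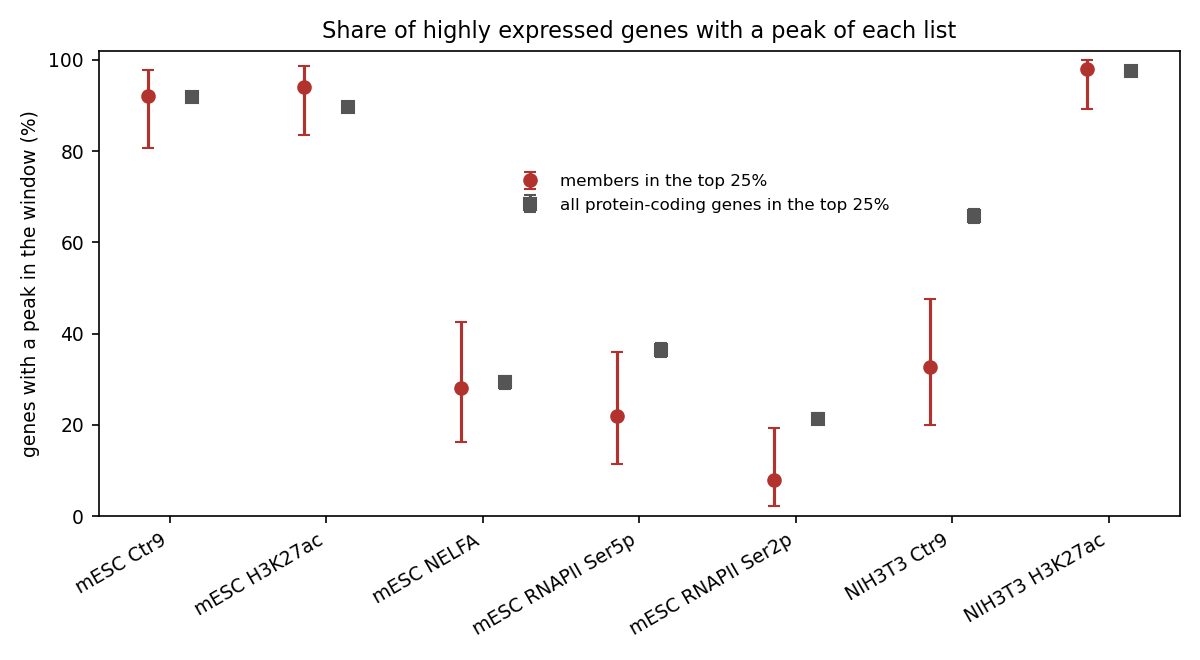
Share of highly expressed genes (top 25% by TPM in the line) with a peak of each list in the window, in percent, for the complex I and cytochrome oxidase genes (circles) and for all protein-coding genes of the class (squares). Bars are 95% exact Clopper-Pearson intervals over genes. For NIH3T3 Ctr9 the circle is at 32.7% and the square at 65.8%, and for mESC Ctr9 both are near 92% in this window, which takes in 5 kb past the gene end. The NIH3T3 Ctr9 circle pools roles that differ. Over all levels, that peak was at 11 of 18 cytochrome c oxidase genes and at 6 of 29 accessory subunits of complex I.

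Ctr9 peaks of both lines were found at 22 genes, peaks of mESCs alone at 32, of NIH3T3 cells alone at 1 (Cox4i2) and of neither line at 9. Over all protein-coding genes these shares were 22.4%, 21.7%, 3.41% and 52.5%. Of the 49 respiratory genes in the top 25% of both lines, 32.7% had Ctr9 in both and 59.2% in mESCs alone, compared with 66.0% and 26.8% of all 2740 such genes. Of the cytochrome c oxidase genes among the 49, Cox6b1, Cox7a2 and Cox7b had Ctr9 in mESCs alone and the others in both lines. The larger share in mESCs alone therefore lay among the Nduf genes. The 32 genes included some of the most highly expressed. Ndufa4 had 494 TPM in mESCs and 651 TPM in NIH3T3 cells, with a Ctr9 peak of fold enrichment 8.09 in mESCs and none in NIH3T3 cells. Ndufv2 had 240 and 207 TPM, with 3 mESC Ctr9 peaks and no NIH3T3 peak. By role, Ctr9 peaks in mESCs and in NIH3T3 cells were found at 7 and 2 of the 7 core subunits, 25 and 6 of the 29 accessory subunits, 6 and 3 of the 8 assembly factors, and 14 and 11 of the 18 cytochrome c oxidase genes. The shares of all genes were 44.1% in mESCs and 25.8% in NIH3T3 cells, and those of highly expressed genes 91.9% and 65.8%. H3K27ac was shared by both lines at 53 genes (82.8%, compared with 38.8% of all genes), and at 93.9% of the 49 genes in the top 25% of both lines, compared with 91.3% of all such genes. Among the rest, the genes with H3K27ac in NIH3T3 cells alone were Ndufa1, Ndufa5 and Ndufaf4 and in mESCs alone Cox6b2 and Cox7b2. Over all genes the shares were 15.9% in NIH3T3 cells alone, 4.32% in mESCs alone and 40.9% in neither line, where 6 respiratory genes fell.

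The highest Ctr9 fold enrichments, which give the fragment pileup at the summit over the local background, lay in part in neighbouring genes. In mESCs the highest was Ndufa4l2, with 27.6 in its own body 1599 bps past the start, followed by Ndufb10 with 26.2, 1816 bps past the start. The end of Shmt2 (110 TPM in mESCs), on the opposite strand, overlaps the end of Ndufa4l2 (13.2 TPM). The Ndufa4l2 summit therefore also lay past the end of Shmt2. Ndufaf3 followed with 20.0, but that summit lay in Impdh2, and the peak in the body of Ndufaf3 had 9.75. The end of Impdh2 (400 TPM in mESCs), on the opposite strand, likewise overlaps the end of Ndufaf3 (15.1 TPM). Which gene of each pair gave the peaks in the bodies of Ndufa4l2 and Ndufaf3 was not tested. At Ndufa7 (19.7) the summit lay in Rps28, a ribosomal protein gene with 2947 TPM in mESCs, and at Ndufs1 (12.5) it lay 4078 bps past the gene end. In NIH3T3 cells the highest were Ndufb10 (22.8), Ndufa7 (15.3, in Rps28), Ndufs1 (6.4, in Eef1b2), Cox7c (5.79) and Ndufaf3 (5.66, in its own body). Ndufb10 lies beside Rps2, another ribosomal protein gene, with 2096 TPM in mESCs and 1788 TPM in NIH3T3 cells. Its own level was 119 and 148 TPM.

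**Figure D4:**
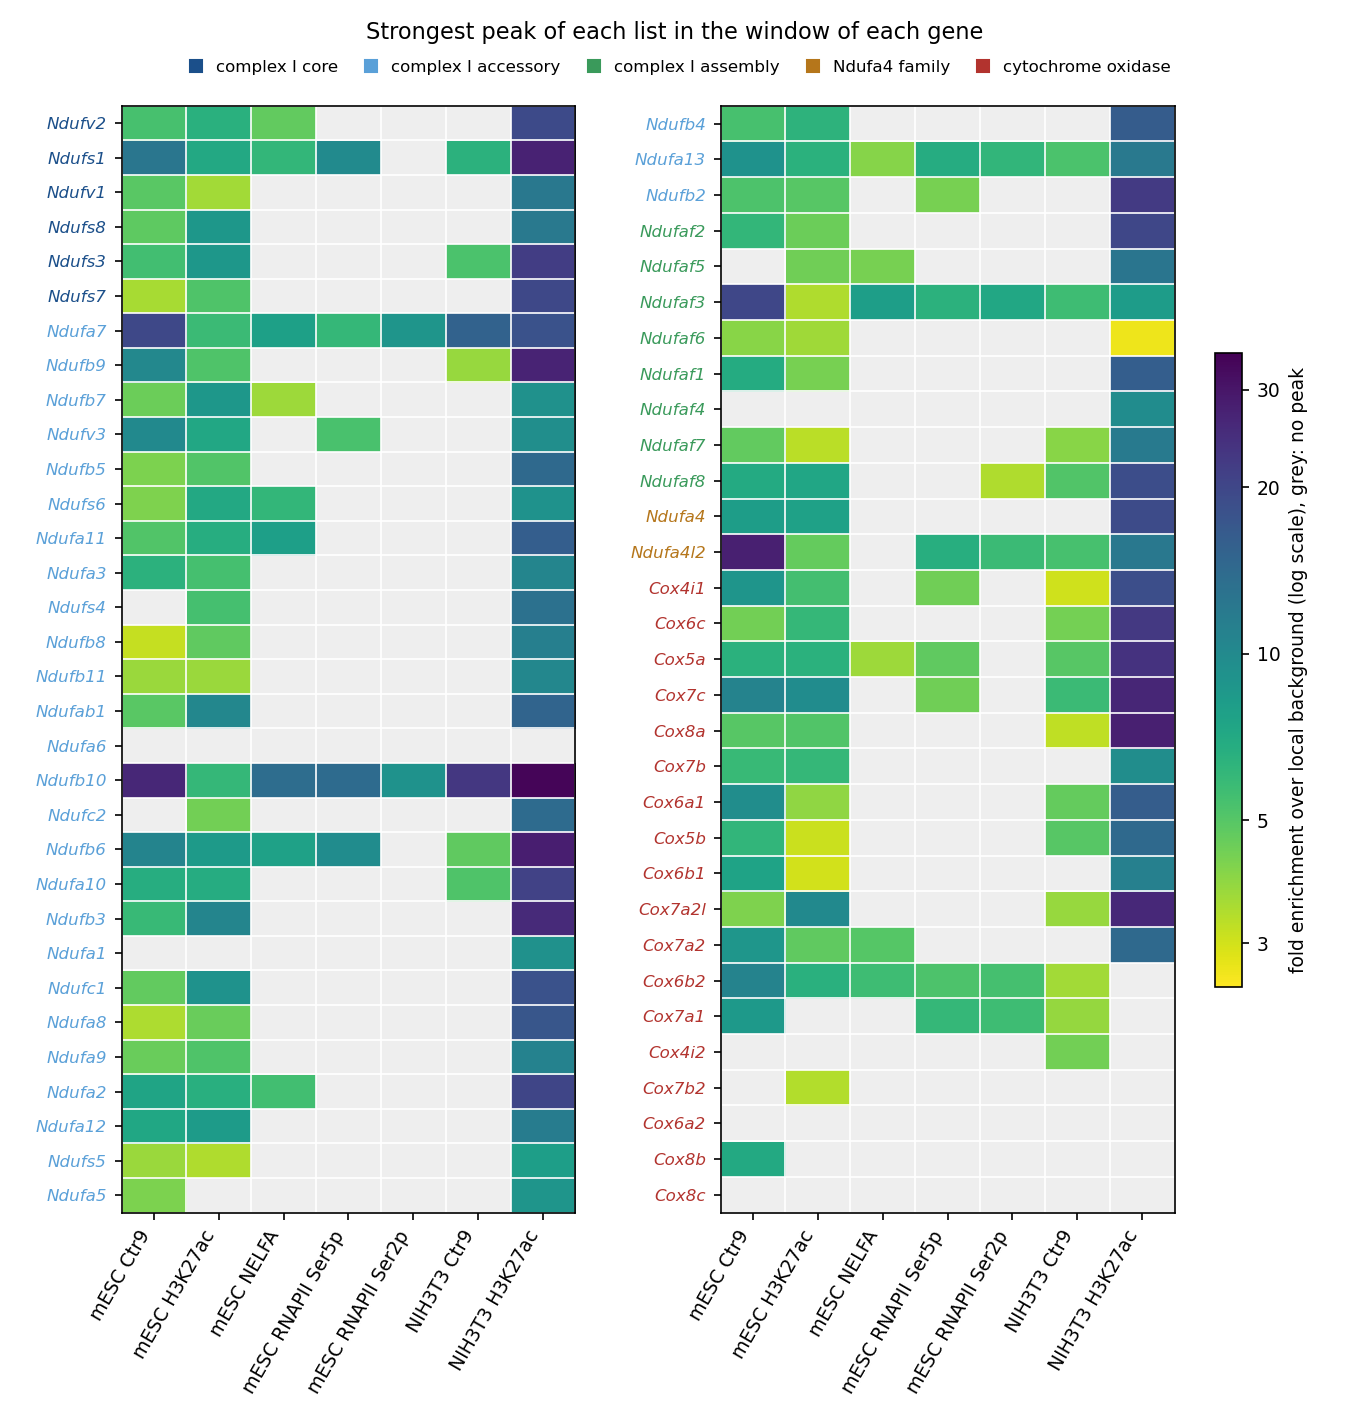
Fold enrichment over the local background (colour, log scale) of the strongest peak of each list in the window of each of 63 of the 64 genes, ordered by role and then by TPM in mESCs. Grey cells have no peak. Ctr9 and H3K27ac of mESCs and H3K27ac of NIH3T3 cells are present at most genes, and only Ndufb10, Ndufa7, Ndufa13 and Ndufaf3 have a peak of all 7 lists.

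The strongest summits of Ctr9 lay in other parts of the genes than those of H3K27ac and NELFA in mESCs. The strongest Ctr9 summit lay past the annotated gene end at 41 of 54 genes (75.9%), and the median position was 1179 bps past the end. By zone, 39 of the 54 strongest summits were in the 5 kb downstream (72.2%), compared with 73.6% for all highly expressed genes with a Ctr9 peak. At the 12 genes with a Ctr9 peak and no other gene body in the window, the strongest summit lay past the end, compared with 78.2% of such genes in the highly expressed class. One of the 12, Cox5a, had that summit 5271 bps past the end, beyond the window in Fam219b. Examples are Cox7c, with fold enrichment 10.8 at 1538 bps past the end, Cox7a2, with 8.77 at 1862 bps, and Ndufa12, with 7.25 at 1201 bps. H3K27ac had its strongest summit within 500 bps of the start at 45 of 55 genes in mESCs and 46 of 56 in NIH3T3 cells, and NELFA at 12 of 16. These shares of 81.8%, 82.1% and 75% compare with 72.0%, 71.9% and 76.6% for all highly expressed genes with a peak. RNAPII Ser5p was more spread, with 35.7% of the strongest summits within 500 bps of the start and 35.7% downstream, compared with 50.8% and 22.4%. In NIH3T3 cells the strongest Ctr9 summit was in the gene body at 10 of 23 genes, downstream at 6, upstream at 3 and beyond the window at 4. These shares of 43.5%, 26.1%, 13.0% and 17.4% compare with 46.0%, 44.1%, 4.65% and 5.23% for all highly expressed genes with a peak.

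**Figure D5:**
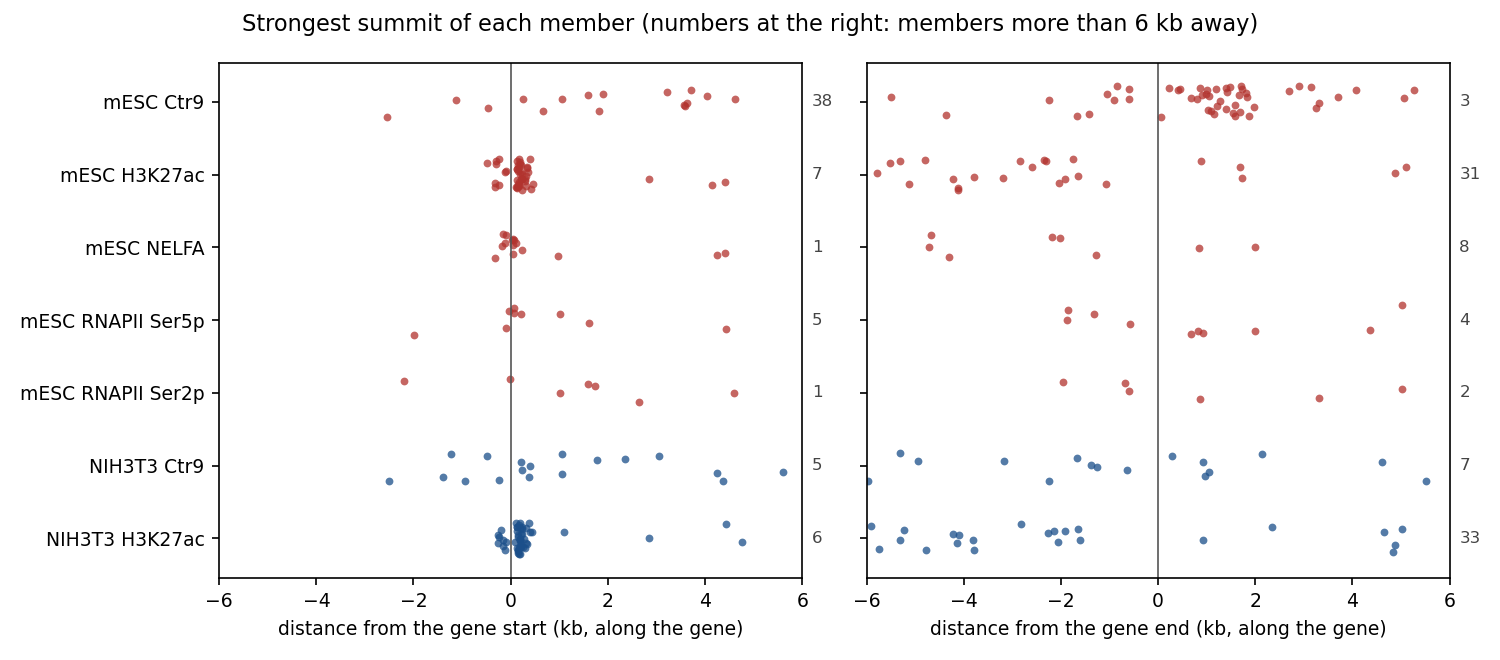
Distance of the strongest summit of each list from the gene start (left) and the gene end (right), in kb along the direction of the gene, 1 point per gene, mESCs in red and NIH3T3 cells in blue. Points of H3K27ac and NELFA gather at the start, and points of mESC Ctr9 gather within 2 kb past the end.

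Among the 16 genes with a NELFA peak were Cox5a, Cox6b2, Cox7a2, Ndufa2, Ndufa7, Ndufa11, Ndufa13, Ndufaf3, Ndufaf5, Ndufb6, Ndufb7, Ndufb10, Ndufs1, Ndufs6 and Ndufv2. All but Ndufaf5 also had a Ctr9 peak in mESCs, as did 91.0% of all genes with NELFA. The strongest, at Ndufb10 (fold enrichment 13.7), and the one at Ndufb6 (7.75) had their summits in the neighbouring genes Rps2 and Topors. Peaks within 500 bps of the gene start were strongest at Ndufaf3 (7.97), Ndufa11 (7.93, where Vmac overlaps on the opposite strand) and Ndufa7 (7.85). The summit at Ndufa7 lay just upstream of its start, in the body of the neighbouring gene Rps28 on the opposite strand. The 14 genes with RNAPII Ser5p and the 8 with RNAPII Ser2p all had a Ctr9 peak, as did 94.9% of all genes with Ser5p and 100% of all genes with Ser2p. Of the 14 genes with Ser5p, 7 also had Ser2p, compared with 43.3% of all genes with Ser5p. Ser2p was found at Cox6b2 (5.45), Cox7a1 (5.66), Ndufa4l2 (5.81), Ndufa7 (8.85, in Kank3 and Rps28), Ndufa13 (6.15, where Yjefn3 overlaps), Ndufaf3 (7.18, in Impdh2), Ndufaf8 (3.41) and Ndufb10 (9.08).

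Of the 5 genes at or near 0 in NIH3T3 cells and higher in mESCs, Cox6b2, Cox7a1, Ndufa4l2 and Ndufaf3 carried RNAPII Ser5p and Ser2p peaks in mESCs, and Cox4i2, with 14 counts, had no peak of any mESC list. Over all genes Ser5p was at 12.8%, Ser2p at 6.99% and both at 5.54%. Over highly expressed genes these shares were 36.3%, 21.3% and 18.2%, but Cox7a1, Ndufa4l2 and Ndufaf3 were below the limit of that class. In the windows of these 3 genes lies the end of a higher gene on the opposite strand, Capns1, Shmt2 and Impdh2 in turn (165, 110 and 400 TPM in mESCs). Which gene of each pair the peaks belong to was not tested. Of the 2 Ser2p peaks at Ndufaf3, the stronger had its summit in Impdh2, and the other, with 4.27, lay in the body of Ndufaf3. At Cox6b2 (chr7:4751792-4753094, minus strand), a Ctr9 peak of 7310 bps with fold enrichment 10.8 covered the end of the gene and its downstream region, with its summit 3309 bps past the end in no other gene body, and reached into the gene Kmt5c (20.5 TPM). The window also held 7 Ser5p, 2 Ser2p, 2 NELFA and 3 H3K27ac peaks. NIH3T3 cells had a single Ctr9 peak of fold enrichment 3.59 there, 1042 bps past the end, and no H3K27ac peak. At Cox7a1 (chr7:30184144-30186078, plus strand), a Ctr9 peak of 3170 bps with fold enrichment 8.37 covered the gene, a Ser5p peak of 6.02 had its summit 77 bps past the start and a Ser2p peak of 5.66 lay at the start. No H3K27ac peak was called at Cox7a1 in either line, and NIH3T3 cells had 2 Ctr9 peaks of at most 3.79. Capns1, on the opposite strand, ends in the window past the end of Cox7a1 and had 165 TPM in mESCs and 150 TPM in NIH3T3 cells. At Ndufa4l2 (chr10:127514967-127517154, plus strand), the Ctr9 peak of 27.6 spanned 3849 bps, and Ser5p and Ser2p summits lay 1615 and 1582 bps past the start with fold enrichments of 6.70 and 5.81. The H3K27ac peaks in its window lay in Shmt2. At Ndufaf3 (chr9:108565537-108567434, minus strand), NELFA and Ser5p peaks lay at the start in mESCs. NIH3T3 cells had H3K27ac peaks of 4.49 and 6.23 at the start of Ndufaf3 and a Ctr9 peak of 5.66 in its body, with 0.458 TPM.

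Some genes had peaks without mRNA or mRNA without peaks. Cox4i2 (chr2:152754173-152765037, plus strand) had 5 Ctr9 peaks in NIH3T3 cells with fold enrichments of 2.98 to 4.38 and no count there, and no peak of any list in mESCs. Cox8b had 3 Ctr9 peaks in mESCs, the strongest at 7.01 in its own body, and no count in either line. Its neighbour Psmd13 had 82.9 TPM in mESCs. The converse was found at Ndufa1, with 82.1 TPM in mESCs and 114 TPM in NIH3T3 cells, which had no peak of any mESC list. In NIH3T3 cells its strongest H3K27ac peak, of 9.18, had its summit in the neighbouring gene Rnf113a1, and a peak of 4.68 lay in its own body. Ndufa6, with 120 and 70.5 TPM, had no peak of any of the 7 lists. In all, 6 genes had no mESC peak, Cox4i2, Cox6a2, Cox8c, Ndufa1, Ndufa6 and Ndufaf4. These 6 (9.38%) were also the genes with neither Ctr9 nor H3K27ac in mESCs, compared with 46.4% of all genes, and in the top 25% such genes made up 4% of the 50 respiratory genes and 3.94% of the class. The 54 genes with a Ctr9 peak in mESCs had a median of 103 TPM (60.8 to 133.9) and the 10 without a median of 14.8 TPM (0 to 119.7). In NIH3T3 cells the medians were 113 TPM for 23 genes (10.5 to 251) and 83.8 TPM for 41 (58.7 to 107.7). The intervals overlapped in both lines.

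Promoter sequences from 250 bases before to 50 after the start were taken from RefSeq (GRCm38.p6), where 53 of the 64 genes had an entry. Of these, the 6 genes are shown that had the strongest NELFA or RNAPII Ser5p peak at the start, 5′ to 3′ along the gene. Capitals mark matches, on either strand, to the letters CGCATGCG (NRF1), CCGGAAG (ETS factors), AANATGGC (YY1), GGGCGG (SP1) or TATAAA, none of which contains another.
Ndufaf3 (chr9:108567387-108567686, minus strand): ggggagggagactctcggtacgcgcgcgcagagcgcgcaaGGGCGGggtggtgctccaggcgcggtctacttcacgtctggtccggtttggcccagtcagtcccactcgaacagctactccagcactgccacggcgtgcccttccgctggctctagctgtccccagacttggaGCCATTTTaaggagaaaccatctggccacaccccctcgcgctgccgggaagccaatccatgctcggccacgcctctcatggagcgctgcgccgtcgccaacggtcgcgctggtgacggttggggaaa
Ndufa11 (chr17:56717512-56717811, plus strand): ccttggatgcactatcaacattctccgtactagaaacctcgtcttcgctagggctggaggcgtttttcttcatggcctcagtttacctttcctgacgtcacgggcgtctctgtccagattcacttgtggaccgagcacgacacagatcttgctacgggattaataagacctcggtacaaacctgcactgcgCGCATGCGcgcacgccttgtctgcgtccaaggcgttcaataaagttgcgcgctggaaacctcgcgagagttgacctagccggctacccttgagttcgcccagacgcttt
Ndufa7 (chr17:33824322-33824621, plus strand): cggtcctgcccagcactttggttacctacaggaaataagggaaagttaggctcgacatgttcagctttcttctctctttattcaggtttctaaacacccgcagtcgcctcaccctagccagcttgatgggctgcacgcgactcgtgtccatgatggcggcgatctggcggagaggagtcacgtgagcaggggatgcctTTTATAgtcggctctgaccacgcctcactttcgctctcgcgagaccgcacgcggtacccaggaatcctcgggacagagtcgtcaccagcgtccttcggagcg
Ndufs6 (chr13:73328433-73328732, minus strand): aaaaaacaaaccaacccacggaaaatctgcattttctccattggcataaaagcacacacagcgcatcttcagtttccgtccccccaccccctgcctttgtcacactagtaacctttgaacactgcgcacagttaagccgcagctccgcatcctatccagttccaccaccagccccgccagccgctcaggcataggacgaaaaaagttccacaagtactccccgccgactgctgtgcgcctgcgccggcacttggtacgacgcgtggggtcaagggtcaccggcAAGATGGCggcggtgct
Cox7a1 (chr7:30183921-30184220, plus strand): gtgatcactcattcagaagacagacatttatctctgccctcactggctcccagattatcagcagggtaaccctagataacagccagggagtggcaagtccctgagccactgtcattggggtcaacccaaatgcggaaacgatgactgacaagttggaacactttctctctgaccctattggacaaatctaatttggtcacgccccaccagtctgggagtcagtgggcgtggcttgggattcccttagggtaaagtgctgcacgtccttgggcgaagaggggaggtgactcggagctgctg
Cox6b2 (chr7:4753045-4753344, minus strand): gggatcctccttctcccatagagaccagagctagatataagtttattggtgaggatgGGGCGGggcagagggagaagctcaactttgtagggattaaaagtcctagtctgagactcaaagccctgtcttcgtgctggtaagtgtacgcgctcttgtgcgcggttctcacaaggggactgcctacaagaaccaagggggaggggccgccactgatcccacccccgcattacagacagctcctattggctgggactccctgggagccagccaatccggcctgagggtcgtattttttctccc
The promoters of Ndufaf3 and Ndufs6 each held the YY1 letters, that of Ndufa11 the NRF1 letters, that of Ndufa7 the TATAAA letters on the opposite strand and those of Ndufaf3 and Cox6b2 the SP1 letters. The promoter of Cox7a1 held none of the 5 motifs.

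Over the 53 promoters, the YY1 letters were present in 14 (26.4%), compared with 6.75% of all 16496 promoters and 12.2% of the 3207 promoters of highly expressed genes in mESCs. The 14 genes were Cox7b and 13 Nduf genes, among them Ndufb10, Ndufs4, Ndufs7 and Ndufs8. The NRF1 letters were present in 5 (9.43%, compared with 2.65% and 5.05%), at Cox6a1, Ndufa8, Ndufa11, Ndufaf4 and Ndufaf5. The ETS letters were present in 9 (17.0%, compared with 12.3% and 25.2%), the SP1 letters in 27 (50.9%, compared with 48.2% and 69.6%) and TATAAA in 6 (11.3%, compared with 12.9% and 6.92%). The median GC content was 57.3% for the 53 promoters, 57.0% for all and 61.3% for highly expressed genes. A match is a description of the letters in this window and not of a bound site.

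The other genes of the respiratory chain were counted in the same way, against the 23.8% and 20.0% of all genes higher in mESCs and in NIH3T3 cells. Complex II had 1 of 4 genes higher in mESCs by 2-fold or more, Sdha with 133 TPM in mESCs and 58.9 TPM in NIH3T3 cells, and complex III had 0 of 9. The ATP synthase list had 0 of 17 genes past 2-fold in either direction. Of the 2 cytochrome c genes, the testis form Cyct had 9.60 TPM in mESCs and 0 in NIH3T3 cells, and the common form Cycs had 38.3 and 83.1 TPM. Among 20 assembly factors of cytochrome c oxidase, 4 were higher in mESCs, Coa4 (15.2 and 4.43 TPM), Coa7 (30.8 and 14.3 TPM), Cox11 (27.4 and 11.9 TPM) and the copper chaperone Cox17 (157 and 43.6 TPM), and none was higher in NIH3T3 cells. Among 6 other assembly factors of complex I, Foxred1 (14.9 and 2.56 TPM) and Tmem126b (18.3 and 8.2 TPM) were higher in mESCs. Of 9 regulators of mitochondrial genes that passed the filter, Nrf1 (17.7 and 5.80 TPM) and Ppargc1b (2.61 and 0.259 TPM) were higher in mESCs. These values are those of the highest transcript. Over all transcripts the gap was smaller for Nrf1, with 1747 and 1131 counts, and for Foxred1, with 1055 and 530 counts. Ctr9 peaks in mESCs and NIH3T3 cells were found at 9 and 4 of the 9 complex III genes, 15 and 10 of the 17 ATP synthase genes, leaving out a second entry named Atp5o with 0.733 and 0 TPM, and 18 and 8 of the 20 assembly factors of cytochrome c oxidase, compared with 44.1% and 25.8% of all genes and 91.9% and 65.8% of highly expressed genes. The 10 mitochondrially encoded genes of both complexes summed to 32312 TPM in mESCs and 48016 TPM in NIH3T3 cells, and mt-Nd1 (3842 and 8516 TPM) and mt-Nd3 (724 and 1825 TPM) were higher in NIH3T3 cells by 2-fold or more.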

How the data were processed

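RNA-seq and ChIP-seq files of 9 of the 12 samples were used, 1 library each, and the 3 input libraries were not used. For ChIP-seq, the authors used bowtie2 2.3.5.1 (mm10), left out ENCODE blacklist regions, and took macs2 2.2.6 peaks of single libraries under a q-value limit of 0.01. Each deposited list gives a score, a fold enrichment (ratio to the local background) and −log10 p-value and −log10 q-value at the summit. For RNA-seq, estimated counts and TPM of 137767 transcripts were deposited, made with kallisto 0.46.1 and the GENCODE M19 transcripts. Reads of near-identical copies are shared out by kallisto, so that levels of genes with processed pseudogenes are uncertain, as at Ndufb4 (43.1 and 34.1 TPM) and its pseudogene Ndufb4c (124 and 76.9 TPM).

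Gene coordinates came from GENCODE M21 (GRCm38), which matched all 64 genes and 21905 of 21938 protein-coding genes by identifier. The value of a gene was its highest transcript, the pseudocount 1, and the filter at least 1 TPM in a line. Shares carry 95% exact Clopper-Pearson intervals, which treat genes as independent draws and do not give the error of a library. Count ratios carry exact conditional binomial intervals, which cover counting error only. A count of 0 was set to a floor of 3 counts per library. With 1 library per group no test was made. Genes were named by rule: isoform families, genes 2-fold apart, the 5 highest by TPM and by Ctr9 fold enrichment, genes with NELFA or Ser2p peaks, and genes at 20 TPM or more without a mESC peak. Ndufaf2, Ndufaf4, Ndufa12 and the lowest and highest genes of a role were named as examples after their values were seen, and 1 gene is counted but not reported singly here. The genes, lists and motifs were chosen with earlier results of these data known.

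Python 3.11.15 was used with pandas 2.3.3, NumPy 2.4.6, SciPy 1.17.1 and Matplotlib 3.10.9. The code was tested on simulated data, with 7 of 7 checks passed. In all, 49 alternatives were planned and 27 were added after the values were seen. They changed the pseudocount (0.1), transcript summary, filter, scaling, q threshold (−log10 q of at least 5), window, overlap rule and neighbouring genes. Mesoderm and blood markers were under 1 TPM in both lines, and of the endoderm markers Gata6 was higher in NIH3T3 cells (0.249 and 1.51 TPM).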

Additional observations from a re-analysis of the deposited data

How the results depend on the processing

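Over 15 results and 76 alternatives, 62 values stayed within the 95% interval of the result, or within 1.5 times it for a count. The difference of 0.119 percentage points in mESC Ctr9 between the respiratory genes and all highly expressed genes turned sign in 4 of 6 alternatives chosen after seeing the data. It was −25.6 with only summits in the body or 1 kb upstream, −2.83 with the body and 1 kb on each side, −4.32 with no other gene body in the window and −1.52 with as many peaks as the NIH3T3 list. The count of genes higher in mESCs fell from 7 to 4 when the median of all genes was set to 0, since Cox4i1, Cox4i2 and Cox5a lay near the limit, and the count higher in NIH3T3 cells went from 1 to 0 with TPM summed over all or over protein-coding transcripts. The means of 139.5 TPM in mESCs and 118.0 TPM in NIH3T3 cells were above the medians. Restricted to the 18 genes with no other gene body in the window, the shares in mESCs were 66.7% for Ctr9, 11.1% for NELFA, 11.1% for RNAPII Ser5p and 0% for RNAPII Ser2p, and the strongest Ctr9 summit lay past the gene end at 100% of those with a peak. At the 13 of these 18 genes in the top 25% by TPM, mESC Ctr9 was at 84.6%, compared with 88.9% of such genes in the class. Counting only summits in the body or 1 kb upstream, chosen after seeing the data, gave 42.2% for mESC Ctr9, and counting only summits in no other gene body, likewise chosen after, gave 68.8% for mESC H3K27ac and 71.9% for NIH3T3 H3K27ac. The gap between the respiratory genes and all highly expressed genes in NIH3T3 Ctr9 ranged from −23.2 to −36.7 percentage points over 5 alternatives chosen after seeing the data. This gap pools cytochrome c oxidase genes, most of which had a NIH3T3 Ctr9 peak, with complex I genes, most of which had none. Transcripts with few counts, such as those of Cox4i2, Cox6a2 and Cox7b2, are limited by depth, and the peak lists give no ChIP-seq read totals. No paired analysis was possible because each group had 1 library.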
